A study of Mus musculus with 6 samples.

Results

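Fetal mouse intestine holds mesenchymal cells with high Pdgfra, the gene of a platelet-derived growth factor receptor, that gather under the epithelium as the villus clusters form. The cells described here are those with 2 or more Pdgfra UMIs (unique molecular identifiers, 1 per counted transcript) in 2 of the 6 barcode sets of the deposited matrix. They were split by the summed UMIs of Mki67, a nuclear protein of dividing cells, and Top2a, a DNA topoisomerase of S phase to mitosis. Cells with 2 or more summed UMIs are called cycling and cells with 0 non-cycling, and cells with exactly 1 stand in neither class. These names follow the threshold only, and the level of a wider list of cycle genes by summed UMIs is given below. Set A3 holds 1090 such cells, with 199 cycling, 639 non-cycling and 252 in neither class. Set B3 holds 929, with 53 cycling, 799 non-cycling and 77 in neither class. Together they are 2019 of the 13127 cells of the series. A set is the group of cells whose barcode ends in 1 suffix, and A3 and B3 end in 3_1 and 3_2. The Pdgfra, Mki67 and Top2a UMIs chose the members, so their levels are a description and support nothing.

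The study profiled intestines of Pdgfra-H2BGFP embryos, labelled C57/BL6, by MULTI-seq, in which lipid-anchored DNA barcodes mark pieces of tissue before pooling. Embryos of E13.5 (4 replicates), E14.5 (3), E15.5 (2), E16.5 (2) and E18.5 (2) were cut into pieces of 2.5 mm, which gave 3, 5, 10, 15 and 20 segments. The 6 samples are 2 of all live cells and 1 enriched sample for E15.5 with E16.5, and 2 of all live cells and 1 enriched sample for E13.5, E14.5 and E18.5. Dead cells and erythroid cells were gated out by DAPI and Ter119, and an enriched sample was sorted for CD31, CD45, Epcam or bright reporter fluorescence. All groups come from this reporter line, in which Pdgfra drives a nuclear histone-GFP fusion, and no group without the reporter is among them. No label ties a barcode suffix to a sample, and the embryos in a set are pooled. The comparison is therefore made within each set, with no replicate, no test and no age, and the 95% intervals below cover counting error only. Of cells that passed the filters, 92.0% in A3 and 42.2% in B3 had 2 or more Pdgfra UMIs, against 10.4% to 51.3% in the other 4 sets.

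As background, villus cluster cells lie beneath the fetal epithelium, receive Hedgehog ligands from it through the receptor Ptch1, and secrete bone morphogenetic proteins (BMPs) that hold back epithelial proliferation. They are known as a population that divides little while the mesenchyme around it grows. PDGF ligands from the epithelium act on their receptor, and later subepithelial PDGFRA-high cells, also called telocytes, express Foxl1 and Sox6.

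The promoters of the genes that set the classes, and of a villus cluster gene that was lower in cycling cells of both sets, are shown with motifs known from cycle genes, whose shares over groups of genes follow. Each line gives the 250 bases before the annotated start, 5′ to 3′ on the gene's strand, from RefSeq on GRCm38.p6, the same assembly as the mm10 of the submitters' processing notes. None of the 3 stretches overlaps an exon of the GENCODE annotation supplied. Capitals mark TTTGAA, the core of the cell cycle homology region that binds repressors of mitotic genes, and CCAAT, the box bound by NF-Y, each on either strand.
Mki67: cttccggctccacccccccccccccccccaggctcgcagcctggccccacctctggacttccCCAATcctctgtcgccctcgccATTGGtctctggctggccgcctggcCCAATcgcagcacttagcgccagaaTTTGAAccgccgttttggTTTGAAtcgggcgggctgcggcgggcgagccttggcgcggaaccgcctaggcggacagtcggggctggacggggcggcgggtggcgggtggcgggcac
Top2a: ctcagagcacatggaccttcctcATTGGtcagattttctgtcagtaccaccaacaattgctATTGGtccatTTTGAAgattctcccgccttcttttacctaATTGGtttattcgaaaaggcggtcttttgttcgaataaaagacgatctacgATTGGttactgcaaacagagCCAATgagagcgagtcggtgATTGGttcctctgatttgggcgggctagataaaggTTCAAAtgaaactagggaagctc
Elovl7: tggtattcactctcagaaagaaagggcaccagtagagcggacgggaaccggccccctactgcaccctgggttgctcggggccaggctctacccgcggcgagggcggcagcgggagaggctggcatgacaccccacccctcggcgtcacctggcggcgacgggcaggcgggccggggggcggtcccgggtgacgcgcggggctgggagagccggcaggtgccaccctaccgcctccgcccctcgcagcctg
The Mki67 stretch is chr7:135716380-135716629 on the minus strand, with 2 TTTGAA matches that begin 116 and 98 bases before the start and 3 CCAAT matches. The Top2a stretch is chr11:99024190-99024439 on the minus strand, with 2 TTTGAA matches at 179 and 23 bases and 6 CCAAT matches. The Elovl7 stretch is chr13:108214154-108214403 on the plus strand and holds neither string. Of the 132 cycle-list genes higher in cycling cells of both sets, 101 had a promoter in the table. Among those 101, 31.7% held TTTGAA and 71.3% held CCAAT. The 4568 genes with a promoter among all genes tested held them in 12.3% and 40.6%, and all 27025 genes of the table in 18.3% and 37.5%. The genes higher outside the cycle list, 65 matched, held TTTGAA in 12.3% and CCAAT in 53.8%. The lower genes, 14 matched, held them in 7.14% and 28.6%. A match describes the letters of these windows and is not a bound site.

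The summed Mki67 and Top2a UMIs of the cycling cells fell into low and high values. In A3, 82 cycling cells had 2 or 3 summed UMIs, 18 had 4 to 11 and 99 had 12 or more. In B3 these numbers were 12, 11 and 30. Just inside the threshold lay 66 cells of A3 and 9 of B3 with exactly 2 summed UMIs, and just outside it the 252 and 77 cells with exactly 1. For Pdgfra, 81 cells of A3 and 465 of B3 had exactly 2 UMIs, and 67 and 647 filtered cells with exactly 1 lay outside. The cycling share was 18.3% in A3 (16% to 20.7%, exact binomial) and 5.71% in B3 (4.3% to 7.4%). In the other sets it was 60.6% in A1, 64.3% in A2, 21.6% in B1 and 14.9% in B2 of cells with 2 or more Pdgfra UMIs. The median UMIs of a set ran from 3521 in B3 to 13454 in A2, and the part of depth in these shares was not tested.

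Cycling cells were deeper, with a median of 11553 UMIs against 6704 in A3 and 6059 against 3557 in B3. The decile of total UMIs was therefore held fixed in every ratio below, unless stated otherwise. Each level in CPM (a gene's UMIs scaled to a common total) given with such a ratio is weighted alike for both classes. In A3 the highest decile held 89 cycling and 9 non-cycling cells, and in B3 it held 39 and 47. In B3 only 7 of the deciles had cells of both classes, so its ratios rest mainly on the highest, which spans 5006 to 10857 UMIs. Depth moved with the villus cluster genes inside the non-cycling class too. Their summed level in non-cycling cells of A3 was 6826 CPM in the lowest decile and 2113 CPM in the ninth, and in B3 it was 3344 and 2466 CPM. In the highest decile it was 2652 CPM in A3 and 3168 CPM in B3. Over all genes tested the median log2 ratio was -0.01 in A3 and 0.02 in B3.

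**Figure D1:**
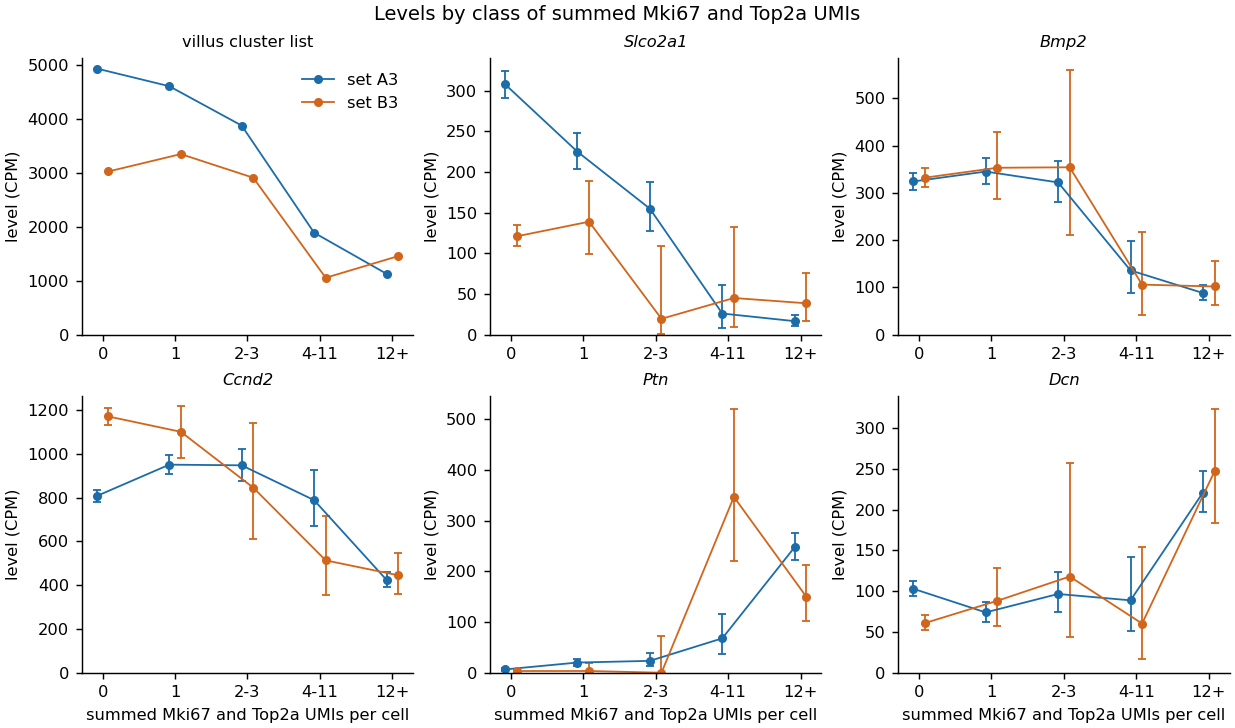
Levels in CPM (vertical axes, linear from 0) of the summed villus cluster list and of 5 genes in cells grouped by summed Mki67 and Top2a UMIs, for sets A3 and B3 and without depth strata. Bars are 95% Poisson intervals, the list has none, and the villus list falls from 4930 CPM with 0 summed UMIs to 1129 CPM with 12 or more in A3 while Ptn goes from 6.53 to 248 CPM.

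The class of 2 or more thus joins cells that differ in the genes of interest, as the plot of levels by summed UMIs shows. Unstratified, the villus cluster list summed to 4930 CPM in A3 cells with 0 summed UMIs, 4603 with 1, 3874 with 2 or 3, 1890 with 4 to 11 and 1129 with 12 or more. In B3 the same steps were 3024, 3346, 2908, 1055 and 1456 CPM. Within deciles, cells with 2 or 3 summed UMIs had villus list ratios of -0.05 in A3 and 0.02 in B3 against cells with 0. Cells with 12 or more had -1.11 (-1.23 to -0.98) and -1.12 (-1.31 to -0.93). The contrast of 12 or more with 0 was added after these counts were seen, and its values are given beside the rule's own. It uses 5 deciles in A3 and only the highest in B3.

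A gene was called where its mean level over both classes was at least 20 CPM in both sets, its ratio at least 1.5-fold in the same direction in both, and both counting intervals clear of 0. Of 5704 genes tested, 211 (3.70%) were higher and 18 (0.316%) lower in cycling cells. Of the 211, 132 belong to the written cycle list, which includes Mki67 and Top2a, and 79 lie outside it. Of the cycle-list genes other than these, 130 of 147 tested were higher and 0 lower, with median log2 ratios of 2.34 in A3 and 3.76 in B3. With 12 or more summed UMIs, 345 (6.16%) of 5603 were higher and 150 (2.68%) lower. Lower genes were thus a larger part of the calls in the stricter class.

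**Figure D2:**
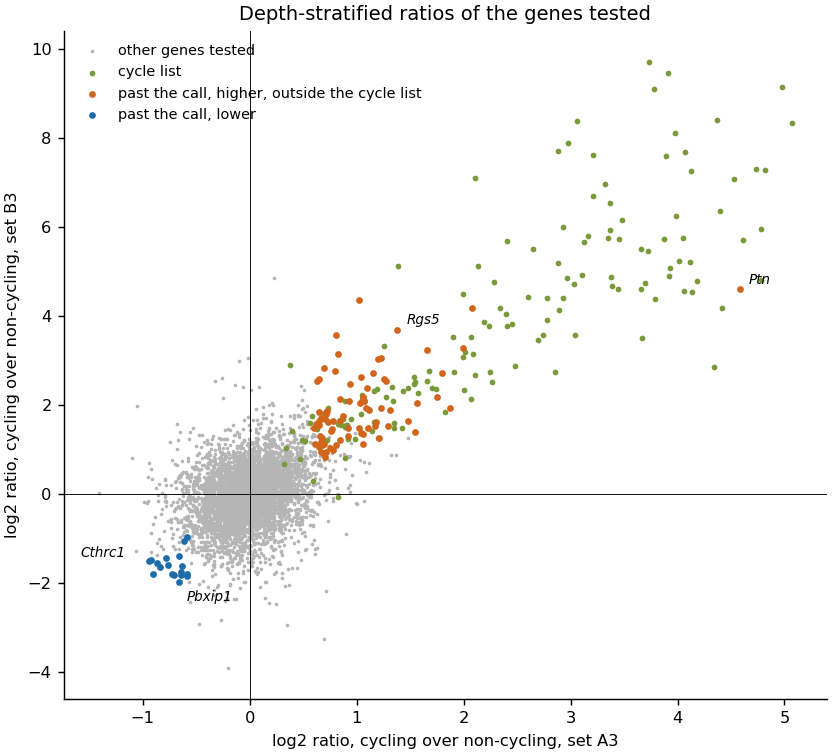
Log2 ratio of cycling over non-cycling cells within deciles of total UMIs in set A3 (horizontal) and B3 (vertical), 1 point per gene, for 5699 of the 5704 genes tested (5 with 0 UMIs in a class have no ratio). Cycle-list genes extend to the upper right, Ptn (4.58 and 4.60) lies among them, and the 18 lower genes lie at the lower left between -0.59 and -0.94 in A3.

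Pooled over deciles, villus cluster genes were lower in cycling cells, by little in A3 and by more in B3. The summed list, without Pdgfra, stood at 3175 CPM in cycling against 3906 CPM in non-cycling cells of A3, a log2 ratio of -0.30 (-0.35 to -0.24). In B3 it was 1708 against 3063 CPM, a ratio of -0.84 (-0.98 to -0.70). Within A3 the direction of the list differed by decile. In deciles 2 to 5 cycling cells held more of it, as in decile 5 at 6690 against 5479 CPM on 4 cycling cells. In deciles 1 and 6 to 10 they held less, as in decile 9 at 1536 against 2113 CPM on 35 cycling cells. Of the 23 members of the list 20 were tested, 16 had ratios below 0 in both sets and 0 above 0 in both, against 30.6% of all tested genes below 0 in both. Only 2 of the 20 met the call, both lower, beside the 0.316% of all genes. With 12 or more summed UMIs 11 of 19 tested were called lower, beside 2.68%. The villus list was among those used for the earlier results, so its direction is not independent evidence.

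Slco2a1, the prostaglandin transporter, was at 125 CPM in cycling and 211 CPM in non-cycling cells of A3, a log2 ratio of -0.76 (-1.03 to -0.48). In B3 it was at 34.7 and 105 CPM, a ratio of -1.59 (-2.55 to -0.63). In non-cycling cells of A3 Slco2a1 fell from 435.1 CPM in decile 1 to 26.39 CPM in decile 9. The 35 cycling cells of decile 9 were close to that, at 20.65 CPM. In decile 10 the levels were 17.82 CPM in cycling and 73.66 CPM in 9 non-cycling cells. Only decile 5, with 4 cycling cells, went the other way, at 548.4 against 369.3 CPM. Elovl7, an elongase of long-chain fatty acids, was at 43.7 against 68.0 CPM in A3 (-0.64, -1.11 to -0.17) and 31.0 against 105 CPM in B3 (-1.76, -2.71 to -0.81). These were the members past the call, and both were lower in all 6 sets. Both had an interval across 0 in B2, and Slco2a1 also in B1. Adamts18, a secreted metalloproteinase, missed the call in A3 at -0.39 (-0.70 to -0.09) and reached -2.09 (-3.21 to -0.97) in B3. Hrc, a calcium-binding protein, named after its values were seen, was at -0.57 in A3 and -1.97 in B3. Ctxn3, a small membrane protein, was at -0.39 and -1.35, and Chp2, a calcineurin-like calcium sensor, at -0.44 and -0.84, with an interval across 0 in B3. The telocyte transcription factors did not meet the call: Foxl1 was at -0.52 and -0.75, and Sox6 at -0.42 and -0.22, both with an interval across 0 in B3. For Sox6 the stricter class gave -1.47 (-2.36 to -0.58) in A3 and 0.00 (-1.07 to 1.07) in B3.

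Further members, named after their values were seen except for the fixed gene Wnt4, show the spread within the list. Nrg1, an ERBB ligand, was at -0.24 (-0.38 to -0.11) in A3 and -1.33 (-1.71 to -0.96) in B3. Npnt, nephronectin of the basement membrane, was at -0.19 and -0.66, and at -2.10 (-2.92 to -1.27) and -2.17 (-3.08 to -1.25) with 12 or more summed UMIs. With 2 or 3 summed UMIs Npnt was at 0.01 (-0.17 to 0.19) in A3 and, in the opposite direction, 1.14 (0.57 to 1.71) in B3. Glp2r, the receptor of glucagon-like peptide 2, was at -0.46 and -0.82. F3, tissue factor, was at -0.01 and 0.10, and Wnt4, a WNT ligand under the level tested in B3, at 0.06 and 0.03, each with an interval across 0. Ednra, an endothelin receptor, had opposite signs at -0.36 and 0.30. The villus list as a whole therefore ranged from members near 0 to members beyond 1 log2 unit in B3.

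**Figure D3:**
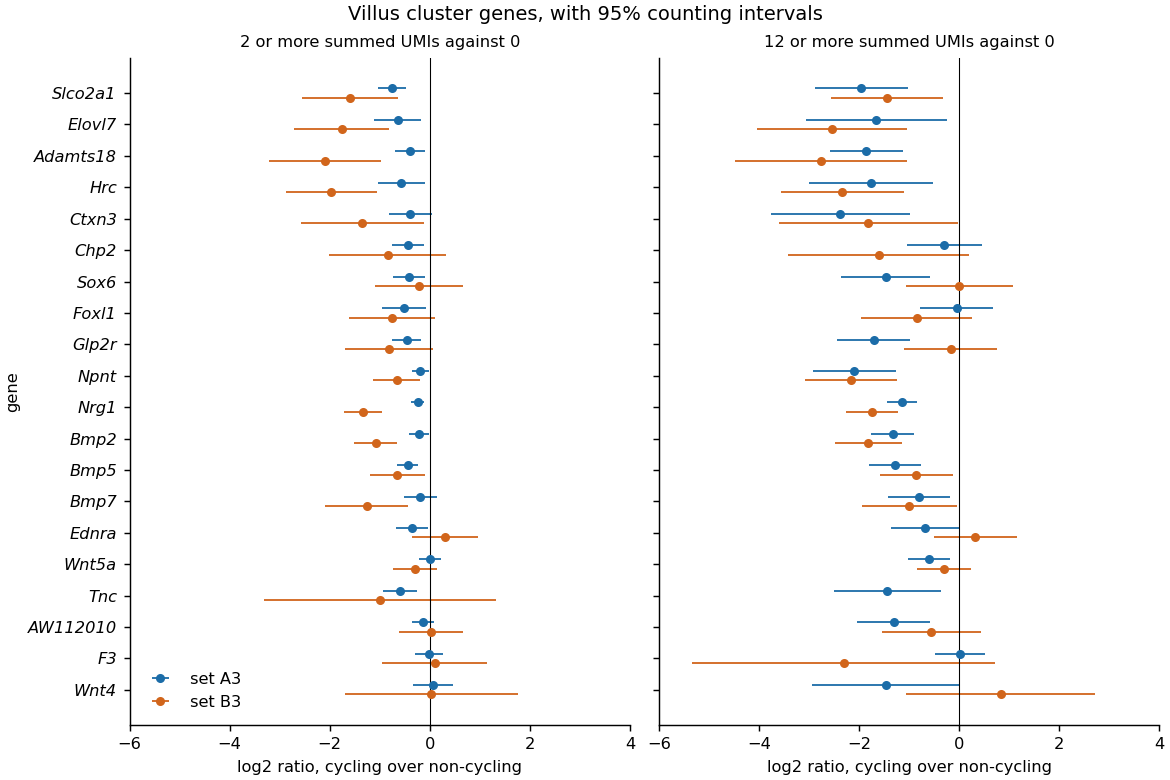
Log2 ratio of cycling over non-cycling cells with 95% counting intervals (horizontal) for the 20 named villus cluster genes (vertical) in sets A3 and B3, for 2 or more summed UMIs (left) and 12 or more (right). Points lie mostly left of 0 and move further left with 12 or more, as for Npnt at -2.10 and -2.17, while F3 and Wnt4 lie near 0 on the left. Tnc has no point for B3 on the right, where cycling cells had 0 UMIs.

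Shares of cells with a UMI, after thinning each cell to 3000 UMIs, compared the same genes at equal UMIs per cell. Unlike the ratios, these shares did not hold the decile of original depth fixed. Without strata the log2 ratio of Slco2a1 in A3 was -2.40, against -0.76 within deciles. A Slco2a1 UMI was held by 12.6% of cycling cells (8.3% to 18%, exact binomial) and 44.4% of non-cycling cells (40.5% to 48.4%) of A3, and by 2.02% of cells with 12 or more summed UMIs. In B3 the shares were 7.55% (2.09% to 18.2%), 24.7% (21.4% to 28.1%) and 6.67%. A Bmp2 UMI was held by 32.7% against 49.8% in A3 and 34.0% against 52.5% in B3. For Sox6 the shares were 16.1% against 36.9% in A3 and 15.1% against 21.4% in B3, and for Foxl1 17.1% against 20.9% and 9.43% against 17.0%. For Chp2 they were 14.1% against 35.3% in A3 and 7.55% against 7.97% in B3. Thinning left out 4 non-cycling cells of A3 and 134 of B3, and no cycling cell. Unthinned, Slco2a1 was held by 24.6% against 59.3% in A3 and 15.1% against 28.8% in B3. Enterocyte genes (Fabp1, Fabp2, Apoa1, Apoa4, Rbp2), which mesenchyme should lack, gave a UMI in 99.5% of cycling and 99.8% of non-cycling cells of A3 and in 11.3% and 15.9% in B3. Transcripts of those genes were thus counted in nearly every cell of A3, at 2190 CPM in cycling and 2240 CPM in non-cycling cells within deciles (-0.03, -0.10 to 0.03). In B3 these genes were at 29.1 against 50.1 CPM (-0.78, -1.87 to 0.31). Whether these were free transcripts, and the part of free transcripts in the shares, was not tested.

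No BMP gene met the call, and the summed list stood below 0 in both sets. With 20 strata in place of deciles Bmp1 was called lower. The BMP list shares Bmp2, Bmp5 and Bmp7 with the villus list. The summed list of 37 BMP genes was at -0.18 (-0.23 to -0.13) in A3 and -0.46 (-0.55 to -0.36) in B3. Of 20 tested, 0 met the call in either direction beside 3.70% and 0.316% of all genes, and 13 (65.0%) had ratios below 0 in both sets beside 30.6%. The 9 ligands summed to 1931 against 2340 CPM in A3 (-0.28, -0.35 to -0.21) and 1860 against 2642 CPM in B3 (-0.51, -0.64 to -0.37). Bmp2 was at 244 CPM in cycling and 284 CPM in non-cycling cells of A3, a ratio of -0.22 (-0.41 to -0.02). In B3 it was at 163 and 345 CPM, a ratio of -1.08 (-1.52 to -0.65). Bmp4 differed little, at 812 against 960 CPM in A3 (-0.24) and 1070 against 1220 CPM in B3 (-0.18, -0.37 to 0.01). Bmp5 was at -0.44 (-0.65 to -0.23) and -0.65 (-1.20 to -0.09), and Bmp7 at -0.19 and -1.26. In cells with 12 or more summed UMIs, 5 of the 18 BMP genes tested were called lower, beside 2.68% of all genes: Bmp1, Bmp2, Bmp3, Bmp5 and Bmp7. In that class Bmp2 was at 101 against 255 CPM in A3 (-1.33, -1.76 to -0.91) and 102 against 358 CPM in B3 (-1.82, -2.49 to -1.14). With 2 or 3 summed UMIs its sign turned, at 0.19 (-0.02 to 0.41) in A3 and 0.13 (-0.55 to 0.80) in B3.

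The BMP antagonists summed to -0.16 (-0.34 to 0.02) in A3 and -0.85 (-1.35 to -0.36) in B3, and the receptors to -0.10 and -0.01. Id1, a direct BMP target that holds back differentiation factors, was at 404 against 422 CPM in A3 (-0.06, -0.22 to 0.09) and 240 against 450 CPM in B3 (-0.91, -1.27 to -0.54). Its relatives Id2 and Id3, named after their values were seen, were at -0.18 and -0.11 in A3 and at -0.24 and -0.58 in B3. Id1 and Id3 thus had intervals clear of 0 in B3 and across 0 in A3.

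Hedgehog genes differed little as a summed list. The list of 18 summed to -0.09 (-0.16 to -0.01) in A3 and -0.17 (-0.31 to -0.02) in B3, with 1 of 10 tested higher, Gas1, and 0 lower, beside 3.70% and 0.316% of all genes. Ptch1, the receptor and feedback target, was at 1010 CPM in cycling and 1090 CPM in non-cycling cells of A3 (-0.11, -0.21 to -0.01) and at 915 and 1240 CPM in B3 (-0.44, -0.64 to -0.24). Gli1, the transcriptional effector and target, was at -0.49 and -0.79, with both intervals reaching across 0. Gli3, another Gli factor named after its values were seen, was at 0.41 (-0.20 to 1.01) in A3 and 1.71 (0.55 to 2.87) in B3. With 12 or more summed UMIs Gli3 met the call as higher, beside 6.16% of all genes. It was then at 0.98 (0.19 to 1.77) in A3 and 2.18 (0.73 to 3.63) in B3. Hhip, a membrane-bound decoy for the ligands, changed sign between the sets at -0.47 and 0.36, and in A3 it also changed sign to 0.44 with 4 or more summed UMIs. The Fox targets summed to -0.11 (-0.23 to 0.02) in A3 and 0.02 in B3, with Foxf1 at 0.00 and 0.15.

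No WNT gene met the call among 14 tested of 47, beside 3.70% higher and 0.316% lower of all genes. At those shares the lack of calls does not set the list apart. The list summed to 0.04 (-0.02 to 0.10) in A3 and 0.11 (-0.01 to 0.24) in B3. Wnt5a, a ligand of beta-catenin-independent signalling, was at 203 against 202 CPM in A3 (0.01) and 196 against 239 CPM in B3 (-0.29, -0.73 to 0.15). Rspo3, an enhancer of WNT reception, was below the level tested, at 13.1 against 9.42 CPM in A3 and 27.0 against 10.5 CPM in B3. Sfrp1, a secreted inhibitor named after its values were seen, was at 0.05 in A3 and 0.39 (0.21 to 0.57) in B3.

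Growth factor genes held 2 single calls. Pdgfa, a ligand of the receptor that Pdgfra encodes, was at 41.8 CPM in cycling and 79.0 CPM in non-cycling cells of A3, a ratio of -0.92 (-1.35 to -0.49). In B3 it was at 42.3 and 118 CPM, a ratio of -1.48 (-2.34 to -0.61). Without depth strata its ratio in A3 was 0.14, and in the other 4 sets its ratios were -0.30, -0.21, 0.18 and -0.05. Pdgfrb, the second PDGF receptor, was at -0.25 and -0.43 with intervals across 0. Tgfb3, a TGF-beta ligand, was at 38.4 against 62.6 CPM in A3 (-0.71, -1.17 to -0.24) and 23.1 against 81.2 CPM in B3 (-1.82, -2.93 to -0.70). It was lower in all 6 sets, with intervals across 0 in A2 and B1. The TGF-beta list summed to -0.22 and -0.28, with 1 of 11 tested lower beside 0.316% of all genes. No gene was called among 8 FGF, 3 Notch, 9 insulin-like growth factor or 6 retinoic acid genes tested. Beside 3.70% higher and 0.316% lower of all genes, this does not set these lists apart. Fgf9, an FGF ligand chosen after its values were seen, was at -0.33 (-0.52 to -0.14) and -0.73 (-1.14 to -0.32).

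Among 7 endothelin, prostaglandin and peptide signalling genes tested, 2 were lower and 0 higher, beside 0.316% and 3.70% of all genes, with a sum of -0.24 (-0.30 to -0.17) in A3 and -0.33 (-0.48 to -0.19) in B3. Besides Slco2a1 the lower gene was Ptgs2, the inducible cyclooxygenase of prostaglandin synthesis. It was at 53.1 against 79.9 CPM in A3 (-0.59, -0.98 to -0.20) and 15.6 against 54.4 CPM in B3 (-1.80, -3.15 to -0.46). Ptgs2 was lower in all 6 sets, but with intervals across 0 in A2, B1 and B2, on 1 cycling UMI in B1 and 3 in B2. In B3, which the call uses, Ptgs2 rested on 5 cycling UMIs. The prostaglandin transporter and synthase were thus the genes of the list past the call, and the transporter Slco2a1 is the gene already counted in the villus list.

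Matrix genes as a whole were nearly level in A3 and lower in B3. The 85 genes summed to 19580 against 20750 CPM in A3 (-0.08, -0.11 to -0.06) and 14770 against 18710 CPM in B3 (-0.34, -0.39 to -0.29). Of 55 tested, 3 (5.45%) were higher and 0 lower, beside 3.70% and 0.316% of all genes, so the share of higher genes was near the background. Below 0 in both sets were 33, or 60.0%, beside 30.6% of all genes. Basement membrane genes were lowest as a group, at -0.22 (-0.26 to -0.17) in A3 and -0.50 (-0.60 to -0.40) in B3. Col4a1, a collagen IV chain, was at 748 against 970 CPM in A3 (-0.38, -0.49 to -0.26) and 630 against 1050 CPM in B3 (-0.74, -0.97 to -0.51), lower in all 6 sets without meeting the call in A3. Its intervals reached or crossed 0 in A1, A2 and B1. Fibrillar and beaded collagens summed to -0.07 and -0.25, although Col1a1, of collagen I, was at 714 against 558 CPM in A3 (0.36, 0.23 to 0.48) and 877 against 764 CPM in B3 (0.20, -0.03 to 0.43). Tnc, tenascin C, was at -0.59 (-0.93 to -0.25) in A3 and under the level tested in B3.

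The 3 matrix genes called higher were Dcn, Fbln1 and Thbs2. With 20 strata in place of deciles only Fbln1 kept the call. Dcn, the collagen-binding proteoglycan decorin, was at 184 CPM in cycling and 115 CPM in non-cycling cells of A3 (0.68, 0.41 to 0.96) and at 179 and 75.3 CPM in B3 (1.25, 0.65 to 1.86). Fbln1, fibulin 1 of elastic fibres, was at 157 against 91.9 CPM in A3 (0.77, 0.48 to 1.07) and 220 against 80.2 CPM in B3 (1.46, 0.90 to 2.02). Thbs2, thrombospondin 2, was at 81.6 against 52.0 CPM in A3 (0.65) and 31.7 against 8.90 CPM in B3 (1.83). Of 54 matrix genes tested with 12 or more summed UMIs, 14 were called lower, beside 2.68%, among them Col4a1, Col4a2, Col4a5, Lama4, Lama5, Nid1, Hspg2 and Npnt of the basement membrane. In the same class 4 were called higher, beside 6.16%: Col14a1, Col5a2, Dcn and Fbln1.

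Ranked by the smaller of its ratios in A3 and B3, the leading gene beyond the lists was Ptn, the secreted heparin-binding growth factor pleiotrophin. It was at 183 CPM in cycling and 7.64 CPM in non-cycling cells of A3, a log2 ratio of 4.58 (3.84 to 5.32). In B3 it was at 148 and 6.11 CPM, a ratio of 4.60 (2.78 to 6.42). At least 1 Ptn UMI was held by 43.4% of A3 cells with 12 or more summed UMIs (33.5% to 53.8%), 8.54% with 2 or 3, 4.37% with 1 and 2.66% with 0. In B3 it was 36.7% (19.9% to 56.1%) with 12 or more, 1.3% with 1 and 1.25% with 0. After thinning, 13.1% of cycling against 1.1% of non-cycling cells of A3 and 22.6% against 1.2% in B3 held a Ptn UMI. In the other 4 sets the ratio was smaller, at 0.35, 0.42, 1.07 and 0.82. There 21.3% to 65.5% of non-cycling cells held a Ptn UMI.

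Markers of other mesenchyme moved with Ptn. The 9 markers Ogn, Aspn, Shisa3, Cxcl13, Il33, Dpt, Mgp, Clec3b and Pi16 summed to 100 CPM in cycling against 42.7 CPM in non-cycling cells of A3 (1.23, 0.82 to 1.65) and 72.9 against 16.1 CPM in B3 (2.18, 0.91 to 3.45). In A3 only Pi16 was at 0, in cycling cells, and in B3 Clec3b and Pi16 were at 0 in both classes and Dpt in non-cycling cells. A UMI of Ogn, Aspn, Shisa3, Cxcl13, Il33 or Dpt was held by 36.4% of A3 cells with 12 or more summed UMIs against 7.36% with 0, and by 20.0% against 1.5% in B3. Cells with 12 or more summed UMIs and 2 or more Ptn UMIs numbered 29 in A3 and 6 in B3. The levels of these groups were taken without depth strata. In A3 these 29 cells had 405 CPM of Dcn, 197 CPM of Gas1, 260 CPM of Rgs5 and 344 CPM of Ptch1. The 56 such cells with 0 Ptn UMIs had 92.8, 3.71, 4.95 and 1160 CPM, and the 639 non-cycling cells 103, 7.66, 11.5 and 1130 CPM. Pdgfra, also without strata, was at 405 and 470 CPM in these groups of cycling cells and at 1190 CPM in the non-cycling cells. Within deciles, Pdgfra in A3 was at 515 CPM with 12 or more summed UMIs against 862 CPM with 0. Without strata, the villus list was at 913.3 CPM in the 29 cells and 1252 CPM in the 56. Slco2a1 and Elovl7 went the other way, at 39.8 and 14.1 CPM against 6.18 and 8.66 CPM. In B3 the 6 cells had 821 CPM of Dcn, 160 of Gas1, 342 of Rgs5, 205 of Ptch1 and 0 of Slco2a1. The 19 B3 cells with 0 Ptn UMIs had 97.6, 0, 7.51, 1070 and 30.0 CPM.

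Leaving out every cell with 2 or more Ptn UMIs, an alternative added after seeing the data, moved the ratios of the higher matrix genes. It kept 164 of 199 cycling and 635 of 639 non-cycling cells of A3. In B3 it kept 45 of 53 cycling and all 799 non-cycling cells. Ptn was picked from this same contrast, so genes held by the same cells are lowered by that choice. The moves describe which genes share cells with Ptn and are not a test. Dcn then went to 0.16 (-0.18 to 0.49) in A3 and 0.26 (-0.45 to 0.97) in B3, and Thbs2 to -0.04 and 0.50. Rgs5, a pericyte gene at 57.0 against 21.9 CPM in A3 (1.38) and 85.4 against 6.64 CPM in B3 (3.69), went to 0.01 and 1.13. Gas1, a growth-arrest membrane protein that also binds Hedgehog ligands, was at 33.3 against 10.0 CPM in A3 (1.74, 0.89 to 2.58), and went to 0.29. In B3 Gas1 had 0 UMIs in non-cycling cells and 42.6 CPM in cycling cells within deciles. Over all 799 non-cycling cells without strata, 0 UMIs allow up to 1.01 CPM. The highest decile, on which the B3 level mainly rests, holds only 47 of those cells, so the bound there is wider. Fbln1 went to 0.36 (0.04 to 0.68) in A3, under the 1.5-fold call, and 1.11 (0.55 to 1.67) in B3. Slco2a1 was at -0.75 (-1.03 to -0.47) and -1.68 (-2.68 to -0.69) and still met the call, while Elovl7 at -0.55 and -1.48 no longer did. The villus list was at -0.22 (-0.28 to -0.17) and -0.69 (-0.83 to -0.55). With 12 or more summed UMIs and those cells left out, the villus list stood at -0.91 and -0.88, with 6 of 18 tested lower. The lower count over all genes in this comparison is given with the other settings at the end. In that comparison Dcn was at 1.97 (1.57 to 2.37) in A3 and 0.31 (-0.62 to 1.24) in B3, and Thbs2 at 2.78 (1.63 to 3.93) and -0.60 (-3.86 to 2.67).

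The other markers moved less or in single sets. Immune markers stood at 91.5 CPM in cycling against 158 CPM in non-cycling cells of A3 and 44.7 against 152 CPM in B3. Globin genes were at 41.4 against 36.5 CPM in A3 and at 1820 against 10400 CPM in B3, a log2 ratio of -2.52 (-2.64 to -2.40). Pericyte markers were at 0.39 (0.15 to 0.64) and 0.67 (0.07 to 1.28), led by Rgs5. Epithelial markers were at -0.11 (-0.29 to 0.06) in A3 and 1.03 (0.41 to 1.64) in B3. Smooth muscle markers were at -0.25 and -0.04, pacemaker markers at 0.01 and 0.11, endothelial at 0.04 and 0.14, and glial and neuronal at -0.62 and -1.68 on 1 UMI in cycling cells of B3. Mesothelial markers were near 0 in both classes, at 1.45 against 1.70 CPM in A3 and 2.70 against 2.84 CPM in B3. The part of these markers in the ratios above was not tested.

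Cycle regulators moved in both directions. Ccnd2, cyclin D2 of G1 entry, did not meet the call in A3, with 685 against 907 CPM in A3 (-0.41, -0.52 to -0.29) and 538 against 1240 CPM in B3 (-1.21, -1.45 to -0.96). It was below 0 in all 6 sets and reached -1.54 (-1.77 to -1.30) and -1.50 (-1.83 to -1.18) with 12 or more summed UMIs, but in A3 it was at 0.07 (-0.05 to 0.20) with 2 or 3. Ccnd1, cyclin D1, was at -0.31 and -1.19 with intervals across 0, and had ratios below 0 in all 6 sets, but was at 0.42 (0.04 to 0.80) in A3 without depth strata. Cdkn1c, the cyclin-dependent kinase inhibitor p57, was nearly level at 1370 against 1450 CPM in A3 (-0.08, -0.17 to 0.00) and 1230 against 1420 CPM in B3 (-0.20, -0.38 to -0.02). The other 4 sets gave Cdkn1c ratios of -0.55, -0.66, -0.54 and -0.65. Cdkn2d, the inhibitor p19, was higher, at 56.1 against 25.8 CPM in A3 (1.12, 0.59 to 1.65) and 93.8 against 25.5 CPM in B3 (1.88, 0.90 to 2.86), in all 6 sets. With Gas1 it was 1 of 2 higher among 14 tested regulators, beside 3.70% of all genes.

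Beyond the lists, the rule named 10 genes that were higher. Besides Ptn these were Tubb6, G2e3, Hirip3, Nsd2, Arl6ip1, Cep295, Itm2a, Lsm3 and Dnajc9. Tubb6, a beta-tubulin, was at 87.1 against 29.5 CPM in A3 (1.56) and 88.5 against 21.3 CPM in B3 (2.05). G2e3, a ubiquitin ligase named for G2 and M phase expression, was at 1.27 and 2.53, and Arl6ip1, a protein that shapes the endoplasmic reticulum, at 1.20 and 3.02. Hirip3 and Dnajc9, partners of histones, were at 1.26 and 1.03 in A3 and at 2.59 and 2.03 in B3. Nsd2, a histone H3 methyltransferase, was at 1.21 and 1.25. Cep295, a centriole protein, was at 1.17 and 1.53. Lsm3, of the RNA-splicing Sm-like ring, was at 1.07 and 2.09. Itm2a, a membrane protein, was at 1.10 and 2.37, but at -0.03 in A3 without the Ptn cells. All but Nsd2 were above 0 in all 6 sets. Kitl, the ligand of the Kit receptor and named after its values were seen, was at 43.8 against 18.7 CPM in A3 (1.23) and 44.0 against 5.26 CPM in B3 (3.06).

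Only 4 genes beyond the lists were lower with at least 50 CPM. Cthrc1, a secreted glycoprotein of remodelling matrix, was at 75.0 against 144 CPM in A3 (-0.94, -1.25 to -0.62) and 53.2 against 152 CPM in B3 (-1.51, -2.29 to -0.74). Pbxip1 was at -0.66 and -1.99. Ptpre, a receptor-type tyrosine phosphatase, was at -0.59 and -1.85, and Map1b, a microtubule-associated protein, at -0.59 and -0.97. Each of the 4 was lower in all 6 sets, but in B2 each had an interval across 0. The 18 lower genes had median log2 ratios of -0.69 in A3 and -1.63 in B3.

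Immediate early genes did not move together, with a sum of -0.01 (-0.06 to 0.04) in A3 and -0.08 (-0.19 to 0.02) in B3. Of 16 tested, 2 were lower beside 0.316% of all genes: Atf3, a stress-induced transcription factor, at 31.3 against 57.4 CPM in A3 (-0.87) and 21.0 against 61.5 CPM in B3 (-1.55), and Dusp1, a MAP kinase phosphatase, at -0.61 and -1.05. Fos, named after its values were seen, was at 0.08 and 0.24. No mesenchymal transcription factor of the 22 tested met the call, beside 3.70% higher and 0.316% lower of all genes. That list summed to 0.02 (-0.03 to 0.07) in A3 and 0.33 (0.23 to 0.42) in B3. With 4 or more summed UMIs, 3 of 21 tested were higher, Meis2, Nfib and Tcf21, beside 5.38% of all genes, and 1 was lower, Runx1, beside 2.38%. Pdgfra itself, which the rule used, was at 873 against 1020 CPM in A3 and 530 against 636 CPM in B3.

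**Figure D4:**
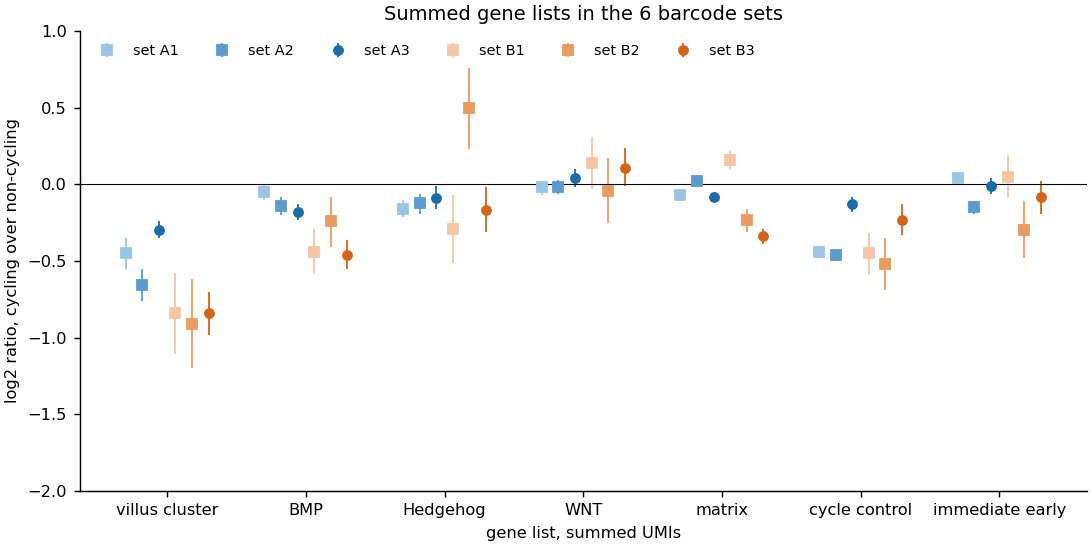
Log2 ratio of cycling over non-cycling cells (vertical) for 7 summed gene lists (horizontal) with 95% counting intervals in the 6 barcode sets, circles for A3 and B3 and squares for the 4 sets that the rule did not use. The villus cluster list lies between -0.30 and -0.91 in all 6 sets, while the Hedgehog, WNT, matrix and immediate early lists lie on both sides of 0.

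The same contrast in cells with 2 or more Pdgfra UMIs of the other 4 sets, which the rule did not use, is shown in the plot of summed lists. The villus list was at -0.45 (-0.55 to -0.35) in A1, -0.66 (-0.76 to -0.55) in A2, -0.84 (-1.11 to -0.58) in B1 and -0.91 (-1.20 to -0.62) in B2. Those cells held less of it, between 578.1 and 1672 CPM in the non-cycling class against 3906 and 3063 CPM in A3 and B3. Slco2a1 was at -2.91, -3.55, -1.62 and -1.01 there, and Bmp2 at -1.43, -1.40, -0.54 and -1.07. Cycle regulators summed to between -0.44 and -0.52 in the 4 sets, against -0.13 and -0.23 in A3 and B3. The BMP list was at -0.05, -0.14, -0.44 and -0.24. The Hedgehog list was at 0.50 (0.23 to 0.76) in B2 and below 0 elsewhere. Of the 18 genes lower in A3 and B3, 17 had the same direction in A1, 17 in A2, 16 in B1 and 15 in B2. Intervals clear of 0 were held by only 11, 9, 3 and 1 of them. The 79 higher genes outside the cycle list kept their direction for 69, 71, 73 and 70, with intervals clear of 0 for 60, 58, 51 and 29. No such share was computed over all genes tested.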

How the data were processed

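The authors deposited raw UMI counts, 1 matrix of 24568 gene symbols by 13127 cells, as counted with Cell Ranger 2.1.1 against mm10 and handled with Seurat, per the submitters' processing notes. Deposited annotation of cells, used as other values, gave the barcode suffix only. The members and gene lists were chosen with earlier results of these data known. Cells with under 1000 genes (108) or over 5% mitochondrial UMIs (367) were left out. Within each set, UMI rates of cycling and non-cycling cells were compared as a Mantel-Haenszel ratio over deciles of total UMIs, with normal 95% intervals on the log scale (Python 3.11.15, numpy 2.4.6, scipy 1.17.1). UMIs of a cell are not replicates, so no p-value is given. Sets ending in _1 and _2 rest on different symbol lists, with 21351 and 18222 symbols counted and 17403 in both.

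Named genes were 30 fixed genes, up to 4 called genes per list and direction, and up to 10 per direction beyond the lists with at least 50 CPM in both sets, by the smaller absolute log2 ratio. Scrublet in scanpy 1.11.5 marked 60 cells (0.457%), of which 5 were cycling members. At that rate the caller has not worked, so doublets were kept, and they may be among the deep cells. On simulated counts with 5553 genes tested, 68.9% of genes changed 2-fold, 97.6% of those changed 4-fold and 0.0186% of unchanged genes were called. These were Poisson counts from set-wide rates, without differences among cells of a class or a link of level with depth. The simulated shares are therefore not error rates of the calls in the real counts. Sets shared 22 barcodes, and A3 and B3 members 0. The calls among transcription factors with 12 or more summed UMIs are not reported here.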

Additional observations from a re-analysis of the deposited data

How the results depend on the processing

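With no replicates, intervals cover counting error only, cells of a set share embryos and library, and the deepest decile decides much of B3. No paired analysis was possible because no label ties a barcode suffix to a sample and no test was made. Counts of genes higher and lower in both sets were 211 and 18. They became 408 and 189 without depth strata, and 350 and 459 with no minimum level. They were 92 and 9 at 50 CPM. A 2-fold call left 0 lower. With exactly 1 summed UMI they were 5 and 0, with 2 or 3 summed UMIs 21 and 1, and with 12 or more 345 and 150. The lower count was 135 with 4 or more summed UMIs, 58 with 2 or more Top2a UMIs and 91 with 2 or more Mki67 UMIs. It was 28 with 1 or more Pdgfra UMIs, 10 without the cell filter, 10 without Ptn cells, and 91 with 12 or more summed UMIs and no Ptn cells. The higher count was 131 with 5 or more Pdgfra UMIs and 87 with other-lineage cells left out, which keeps 15 cycling and 63 non-cycling cells of A3.

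The villus list in A3, at -0.30, was -1.30 without strata, -0.98 with 4 or more summed UMIs, -0.48 with Top2a alone, -0.69 with Mki67 alone, 0.01 with exactly 1, -0.39 without other-lineage cells, -1.11 with 12 or more, -0.05 with 2 or 3, -0.22 without Ptn cells and -0.91 with 12 or more and no Ptn cells. In B3, at -0.84, it was -1.19 with 4 or more, -1.24 with Mki67 alone, 0.15 with exactly 1, -1.12 with 12 or more, 0.02 with 2 or 3 and -0.69 without Ptn cells. The cause was not tested.

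Among genes past the call, signs turned as follows, and genes short of it, such as Bmp2, Npnt, Ccnd2 and Ccnd1, also turned in some settings. With exactly 1 summed UMI, values in A3 were -0.55 for Dcn, -0.51 for Gas1, 0.24 for Pdgfa, 0.25 for Ptgs2, -0.04 for Fbln1, 0.30 for Atf3, -0.16 for Rgs5, -0.36 for G2e3 and Hirip3, -0.10 for Cep295, -0.02 for Itm2a and Lsm3, and -0.15 for Dnajc9. In B3 they were 0.19 for Slco2a1, 0.61 for Elovl7, 0.03 for Ptgs2, -0.29 for Cdkn2d, -1.36 for Rgs5, -0.18 for Ptn, -1.18 for Tubb6, -0.34 for G2e3, -0.27 for Nsd2, -0.04 for Lsm3, 0.52 for Cthrc1, 0.08 for Pbxip1 and 0.46 for Ptpre. With 2 or 3 summed UMIs, A3 gave -0.48 for Dcn, -0.03 for Gas1, -0.02 for Fbln1 and Itm2a, -0.16 for Thbs2, -0.10 for Cdkn2d and -0.04 for G2e3. B3 gave -0.42 for Hirip3, -0.62 for Nsd2 and 0.03 for Map1b. Without strata A3 gave 0.14 for Pdgfa and -0.41 for Thbs2. With 5 or more Pdgfra UMIs it gave -0.20 for Dcn and -0.02 for Thbs2. Without cells holding other-mesenchyme UMIs it gave -0.74 for Dcn, -0.65 for Gas1 and -0.81 for Thbs2. Without other-lineage cells it gave -0.60 for Dcn, 1.90 for Pdgfa, 0.25 for Tgfb3, 0.53 for Ptgs2, -2.90 for Thbs2, -0.53 for Tubb6 and -1.44 for Itm2a. Without Ptn cells it gave -0.04 for Thbs2 and -0.03 for Itm2a. With 12 or more summed UMIs and no Ptn cells, Rgs5 was -1.81 in A3 and Thbs2 -0.60 in B3. All 103 gene values stayed within their intervals with 20 strata, with the cycle list left out of totals, with median centring and with per-cell means. Calls near the threshold still shifted with 20 strata, to 205 higher and 23 lower. Dcn and Thbs2 then lost the call, and Bmp1 and Hrc were called lower. Of 56 thinned shares recomputed at other depths, 24 left their interval.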
